A study of Rattus norvegicus with 9 samples.

Results

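The comparison concerns clusters of small hepatocyte-like progenitors, abbreviated SHPCs, cut out of regrowing rat liver, with and without a prior graft of Thy1+ cells. It rests on 6 of the 9 arrays of the series, 3 titled SHPC and 3 titled Thy1, which were taken by their titles and cell type labels. The other 3 arrays hold hepatocytes captured beside the SHPC clusters of livers without transplantation. All rats were female F344 rats that had received retrorsine at 30 mg/kg in 2 injections spaced by 2 weeks, followed 4 weeks later by partial hepatectomy, so the groups compared share both treatments. In the transplanted group, sorted Thy1+ cells of DPPIV+ donors reached the liver of DPPIV- hosts through the spleen. Clusters were captured by laser from hematoxylin-stained frozen sections of 7 µm, and their RNA was read on whole-transcript Affymetrix arrays. The number of animals, the time of sampling and the number of pooled clusters are not given in the sources used here. Each p-value therefore measures the spread between these arrays, which may be technical.

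Retrorsine blocks division of the resident hepatocytes, and after hepatectomy the liver mass is then rebuilt by small cells that expand as clusters. Hepatocytes switch between making and burning fat: the transcription factors SREBP-1 and ChREBP drive genes of fatty acid synthesis in the fed state, SREBP-2 drives cholesterol synthesis, and PPAR alpha drives mitochondrial and peroxisomal fatty acid oxidation in the fasted state. The nuclear receptor CAR induces drug-metabolising P450 enzymes, with Cyp2b1 as its classical target in the rat.

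In clusters of transplanted livers, Cyp2b1 fell 11.2-fold. Around it lay a broader pattern in which members of the fatty acid oxidation list had lower values, while members of the fatty acid synthesis, cholesterol synthesis and glucose-responsive lists had higher ones. Of 15793 genes tested with limma over all 9 arrays, Cyp2b1 was the only one past the adjusted p of 0.05 (0.00633% of genes, lower), and 0 were higher. An unadjusted p under 0.05 was reached by 800 genes in the higher direction (5.07%) and 361 in the lower (2.29%), while by sign alone 53% of genes were higher and 47% lower. The repeat without SHPC array 2, whose value distribution differs from that of the other SHPC arrays, again left Cyp2b1 alone past the threshold (1 of 15747 genes, 0.00635%), with 525 genes higher (3.33%) and 337 lower (2.14%) at an unadjusted p under 0.05 and a split by sign of 51.7% and 48.3%. When hepatocyte array 2, which stood apart in the same way, was left out as well, 23 of 15710 genes passed (0.146%), 8 higher (0.0509%) and 15 lower (0.0955%). Single arrays decide these counts too: without SHPC array 1 alone 24 genes passed, and without any 1 array of transplanted livers 0 did. Deviations of same-numbered SHPC and hepatocyte arrays correlated. Array 2 stood apart in both groups and deviations cancel within a group, so pairing by number cannot be told from this. With the replicate number as a block over all 9 arrays, 64 genes passed, 42 higher and 22 lower. Cyp2b1 was among them (limma adjusted p = 0.00734). Without SHPC array 2 the blocked fit called 1. Members of these 23 that the naming rule does not reach, and some list members described for contrast, were chosen after their values were seen. Because clusters are bulk samples, fewer cells of a type and less RNA per cell cannot be told apart.

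**Figure D1:**
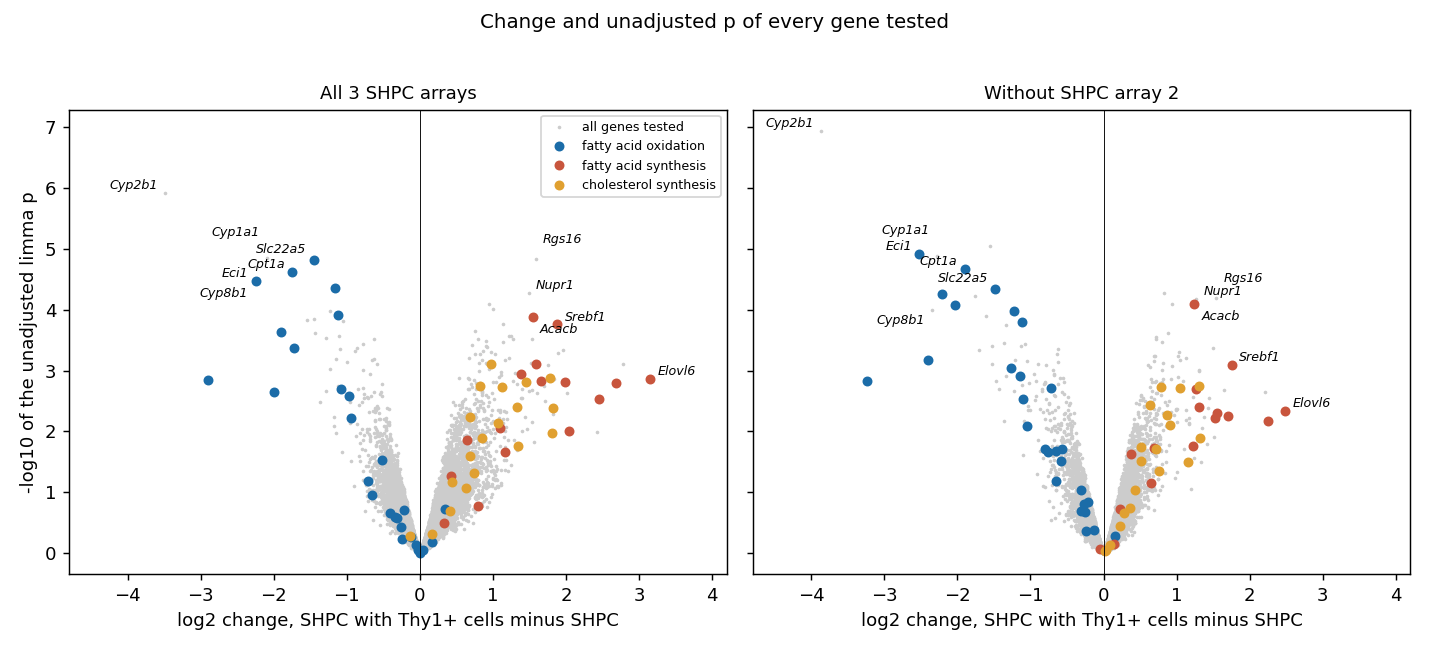
Each point is a gene, with its log2 change (SHPC clusters with Thy1+ cells minus SHPC clusters without) on the x axis and the -log10 of its unadjusted limma p on the y axis, for all 3 SHPC arrays on the left and without SHPC array 2 on the right. Coloured points are members of the fatty acid oxidation, fatty acid synthesis and cholesterol synthesis lists. Cyp2b1 lies apart in both panels, with a log2 change of -3.48 on the left and -3.86 on the right.

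Cyp2b1 encodes the phenobarbital-inducible P450 of rat liver. Its log2 intensity was 8.65, 7.87 and 9.34 on SHPC arrays 1 to 3 against 5.61, 5.04 and 4.77 on the arrays of transplanted livers. The lowest SHPC array thus lay above the highest array of transplanted livers, and the hepatocyte arrays lay higher still, at 10.46, 10.32 and 10.34. The log2 change was -3.48 ± 0.33 (limma SE, adjusted p = 0.0188), and -3.86 ± 0.26 without SHPC array 2 (adjusted p = 0.00181). With 3 arrays a group the call rested on single arrays, whereas the size did not. Leaving out array 1, 2 or 3 of transplanted livers gave log2 changes of -3.72, -3.43 and -3.30 with adjusted p of 0.0539, 0.242 and 0.143, and leaving out hepatocyte array 1 or 3 gave adjusted p of 0.0933 and 0.105. A fit of the compared groups alone gave an adjusted p of 0.305. Nr1i3 encodes CAR itself. Its values were 5.68, 5.84 and 6.76 on the SHPC arrays, 4.98, 5.28 and 5.14 on those of transplanted livers, and 7.75 on average in hepatocytes. The groups did not overlap and stood in the same order as for Cyp2b1, but the log2 difference of -0.96 ± 0.28 did not pass (adjusted p = 0.46).

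Cyp2b2 is the near-identical neighbour of Cyp2b1. Its values spread widely among SHPC arrays, 8.30, 6.62 and 9.26, and were 7.88, 7.63 and 6.73 in transplanted livers. These groups overlapped, and the log2 difference of -0.65 ± 0.57 did not pass (adjusted p = 0.747). It was -1.37 ± 0.39 without SHPC array 2 (adjusted p = 0.522). How far either probe set also reads the other gene's transcript was not tested. The sequence just before each start is shown because the pair shares it almost entirely: of 233 aligned bases, 8 differ, an identity of 96.6%. Both lie on the plus strand of RefSeq assembly GRCr8, at chr1:90645886-90646118 for Cyp2b1 and chr1:90722031-90722263 for Cyp2b2, and capitals mark the bases that differ.
Cyp2b1: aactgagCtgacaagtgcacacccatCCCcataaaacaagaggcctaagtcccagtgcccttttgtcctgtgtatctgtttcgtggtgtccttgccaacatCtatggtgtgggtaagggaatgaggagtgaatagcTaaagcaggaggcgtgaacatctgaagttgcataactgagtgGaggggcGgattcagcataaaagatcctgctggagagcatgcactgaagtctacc
Cyp2b2: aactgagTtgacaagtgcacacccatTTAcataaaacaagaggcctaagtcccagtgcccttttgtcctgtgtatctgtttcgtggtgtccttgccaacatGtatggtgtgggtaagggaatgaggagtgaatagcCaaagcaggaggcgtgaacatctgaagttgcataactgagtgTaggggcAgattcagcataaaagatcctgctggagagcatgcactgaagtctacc

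The xenobiotic list as a whole was mixed, and by sign more members were lower than higher. Among 37 tested P450 enzymes, transferases and receptors, 22 were lower and 15 higher. The median log2 change was -0.07 against 0.02 over all genes. At an unadjusted p under 0.05, 6 were higher and 5 lower (5.07% and 2.29% of all genes). Groups did not overlap for 9 higher and 4 lower members (10.6% and 5.23% of all genes). Without SHPC array 2, 23 were lower and 14 higher, and the median was -0.20. There 9 were lower and 6 higher at an unadjusted p under 0.05 (2.14% and 3.33% of all genes). Cyp1a1, the main target of the aryl hydrocarbon receptor, had values of 5.99, 5.87 and 6.84 on SHPC arrays and 4.23, 4.18 and 4.00 on those of transplanted livers. The hepatocyte arrays, at 4.38, 4.61 and 5.10, lay near the transplanted group, so Cyp1a1 was high in SHPC clusters without the graft alone. Its log2 change of -2.10 ± 0.26 missed the threshold (adjusted p = 0.0609) and passed in the fit without SHPC array 2 and hepatocyte array 2 (adjusted p = 0.0393). Cyp2c22, a retinoid-metabolising P450, went the other way, from 11.12, 10.14 and 10.37 to 11.74, 11.81 and 11.83. Its groups did not overlap, with a log2 difference of 1.25 ± 0.23 (adjusted p = 0.162). Nqo1, an NRF2-driven quinone reductase, was 1.09 ± 0.24 higher on the log2 scale (adjusted p = 0.275). The pregnane X receptor gene Nr1i2 differed by -0.16 ± 0.18.

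**Figure D2:**
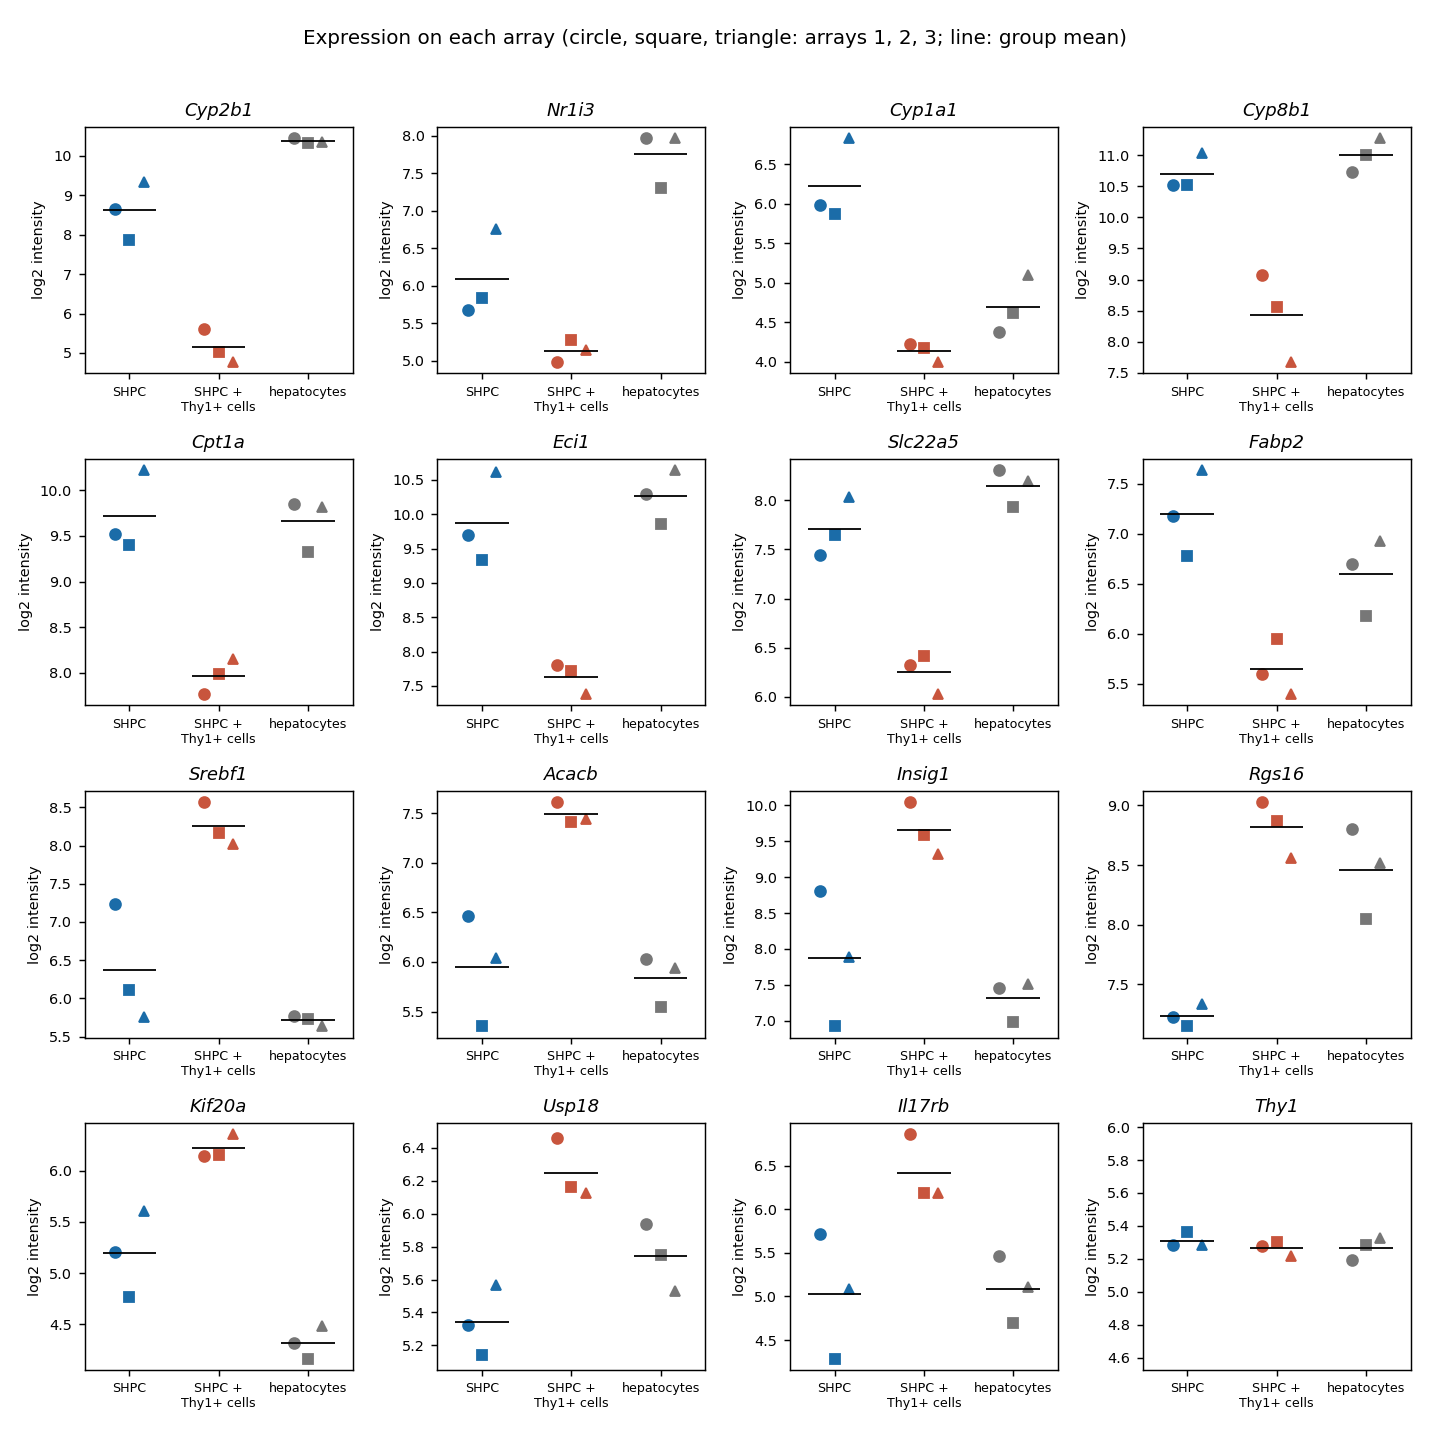
Each panel plots the log2 intensity of a gene on the y axis for the 3 SHPC arrays, the 3 arrays of SHPC clusters with Thy1+ cells and the 3 hepatocyte arrays, with a line at each group mean. Cyp2b1 steps down from 10.37 in hepatocytes to 5.14 with Thy1+ cells, the oxidation genes are low with Thy1+ cells alone, and Thy1 itself lies between 5.19 and 5.36 on all 9 arrays.

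Genes of fatty acid oxidation had mostly lower values in transplanted livers. All 28 measured members of the list were bright enough to test, and 25 were lower, the median log2 change being -0.58. An unadjusted p under 0.05 was reached by 13, all lower (2.29% of all genes, lower). Groups of 13 did not overlap (5.23% of all genes were lower without overlap). Without SHPC array 2, 27 of 28 were lower, and the median was -0.79. Of them, 19 had an unadjusted p under 0.05 (2.14% of all genes, lower). In the fit without both arrays that stood apart, 6 of the 28 passed the adjusted threshold, all lower (0.0955% of all genes, lower). Over all 9 arrays and in the repeat, 0 did.

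Lower values included genes of carnitine import and of fatty acid entry into mitochondria. Slc22a5, the carnitine importer of the cell membrane, had log2 intensities of 7.44, 7.65 and 8.03 on SHPC arrays and 6.33, 6.41 and 6.03 in transplanted livers. Cpt1a, which couples long-chain fatty acids to carnitine and limits their entry into mitochondria, had 9.52, 9.40 and 10.22 against 7.77, 7.99 and 8.15. In both genes the SHPC arrays lay close to the hepatocyte arrays, which averaged 8.15 for Slc22a5 and 9.66 for Cpt1a, and the transplanted group lay below both. The log2 changes were -1.45 ± 0.19 for Slc22a5 (adjusted p = 0.0609) and -1.75 ± 0.23 for Cpt1a (adjusted p = 0.0752), and both genes passed without both arrays that stood apart (adjusted p = 0.047 and 0.0259). Further along the same route, the mitochondrial carnitine carrier Slc25a20 and the inner membrane transferase Cpt2 had overlapping groups, with differences of -0.35 ± 0.29 and -0.72 ± 0.35.

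Within the mitochondrial spiral, the auxiliary enzymes for unsaturated fatty acids had lower values on every array of transplanted livers. Eci1, a double-bond isomerase, had 9.70, 9.33 and 10.61 on SHPC arrays against 7.80, 7.72 and 7.38, a log2 change of -2.25 ± 0.31 (adjusted p = 0.0804). Ech1, the dienoyl-CoA isomerase, had 9.88, 9.26 and 10.49 against 7.97, 8.09 and 7.87, or -1.90 ± 0.34 (adjusted p = 0.162). Decr1, the dienoyl-CoA reductase, differed by -1.13 ± 0.18 (adjusted p = 0.142). In all 3 genes every array of transplanted livers lay below every SHPC array, and Eci1 and Ech1 passed without both arrays that stood apart (both adjusted p = 0.0259). The chain-length dehydrogenases that act on saturated fuel differed less. The long-chain enzyme gene Acadl had a log2 difference of -0.52 ± 0.20, the very-long-chain gene Acadvl -0.12 ± 0.19 and the medium-chain gene Acadm -0.03 ± 0.22, and the groups overlapped for Acadvl and Acadm.

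Other members of the list differed in size. Acot2, a mitochondrial acyl-CoA thioesterase, had 7.57, 7.04 and 8.37 on SHPC arrays against 5.93, 6.03 and 5.85, a log2 change of -1.73 ± 0.33 that passed without both arrays that stood apart (adjusted p = 0.0259). Its cytosolic relative Acot1 was measured at 4.94, 4.90 and 6.93 against 3.04, 2.14 and 2.89, or -2.89 ± 0.66 (adjusted p = 0.278). The 2 genes are near-copies, and whether their probe sets read both was not tested. Pex11a, which drives peroxisome division, had 6.47, 6.95 and 7.08 against 5.61, 5.59 and 5.80, or -1.17 ± 0.17 (adjusted p = 0.0879). Vnn1, a pantetheinase and classical PPAR alpha target, had 6.07, 5.40 and 7.18 against 4.15, 4.43 and 4.08 and passed without both arrays (adjusted p = 0.0353). The peroxisomal oxidation genes Ehhadh and Acaa1a had overlapping groups, with differences of -0.25 ± 0.44 and -0.22 ± 0.16. For Ehhadh the difference was -0.81 ± 0.28 without SHPC array 2 and turned positive without SHPC array 3. The omega-hydroxylase gene Cyp4a1 differed by -1.08 ± 0.26 (adjusted p = 0.301). The hepatokine gene Fgf21 differed by -0.95 ± 0.27 (adjusted p = 0.44).

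Ppara encodes the regulator itself. It had 7.75, 7.15 and 7.36 on SHPC arrays and 7.37, 7.53 and 7.35 in transplanted livers, so the groups overlapped, and the log2 difference was -0.00 ± 0.17 (95% interval -0.39 to 0.38). Of the 3 list members with a positive log2 difference, Angptl4, an inhibitor of lipoprotein lipase, had 0.35 ± 0.25, and it alone stayed above 0 without SHPC array 2 (0.16 ± 0.24). The respiratory chain did not move with the oxidation genes: of 29 oxidative phosphorylation genes 27 were higher over all arrays, with a median of 0.23, and 11 were higher without SHPC array 2, with a median of -0.04.

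Several lipid-handling genes outside the list were named by the size and separation of their change. Gpat3, which starts triglyceride assembly, had 6.80, 6.23 and 7.28 on SHPC arrays against 5.53, 5.50 and 5.43. Fabp2, a fatty acid binding protein, had 7.18, 6.78 and 7.64 against 5.60, 5.95 and 5.40. Hsdl2, a peroxisomal dehydrogenase-like protein, had 8.87, 8.67 and 9.36 against 7.90, 7.80 and 7.87. For all 3 the groups did not overlap, the log2 changes were -1.28 ± 0.24, -1.55 ± 0.26 and -1.11 ± 0.20, and each passed without both arrays that stood apart (adjusted p = 0.0259 for each). Mfsd2a, which imports lysophosphatidylcholine, differed by -1.46 ± 0.24, and Nceh1, a cholesteryl ester hydrolase, by -1.06 ± 0.18 (adjusted p = 0.142 for both). Atf5, a stress-responsive transcription factor, differed by -1.23 ± 0.20 (adjusted p = 0.14).

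Fatty acid synthesis was the list with the largest median. All 16 measured members had higher values, and the median log2 change was 1.56. An unadjusted p under 0.05 was reached by 13 (5.07% of all genes, higher). The groups of 12 did not overlap (10.6% of all genes were higher without overlap), yet 0 passed the adjusted threshold over all 9 arrays. Without SHPC array 2, 15 of 16 were higher, with a median of 1.25.

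Srebf1, which encodes SREBP-1, had log2 intensities of 7.24, 6.11 and 5.76 on SHPC arrays and 8.57, 8.16 and 8.03 in transplanted livers. The hepatocyte arrays held 5.77, 5.73 and 5.63, so SHPC array 1 lay between the hepatocytes and the transplanted group. The log2 difference was 1.88 ± 0.32 (adjusted p = 0.145). Acacb and Acaca encode the acetyl-CoA carboxylases that make malonyl-CoA, the building block of fatty acids and the brake on the Cpt1a enzyme. Acacb had 6.46, 5.35 and 6.04 against 7.61, 7.42 and 7.44, a log2 change of 1.54 ± 0.25 that passed without both arrays that stood apart (1.24 ± 0.14, adjusted p = 0.0259). Acaca differed by 1.59 ± 0.33 (adjusted p = 0.198), without overlap. Elovl6, which lengthens palmitate, had 6.62, 4.07 and 5.49 against 8.97, 8.30 and 8.36. Its log2 difference of 3.15 ± 0.71 was the largest of the list, but the SHPC arrays alone ranged from 4.07 to 6.62 and the adjusted p was 0.275.

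The same order within the SHPC group recurred. Scd, the stearoyl-CoA desaturase, had 10.19, 7.38 and 8.99 against 11.59, 11.15 and 11.15. Thrsp, a lipogenic cofactor, had 10.31, 7.69 and 7.73 against 11.37, 11.17 and 11.25. In both, as in Elovl6 and Acacb, SHPC array 1 was nearest to the transplanted group. Relative to the hepatocyte mean, the median level of the fatty acid synthesis list was 0.93, -0.71 and -0.02 on SHPC arrays 1 to 3 and 1.91, 1.81 and 1.53 in transplanted livers. The oxidation list gave -0.16, -0.66 and 0.27 on SHPC arrays and -0.65, -0.65 and -0.88 in transplanted livers, so on this measure SHPC array 2 lay within the range of the transplanted group. On SHPC array 2 the medians of both lists were low, as was that of oxidative phosphorylation (-0.44 against 0.43 and 0.47 on SHPC arrays 1 and 3).

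**Figure D3:**
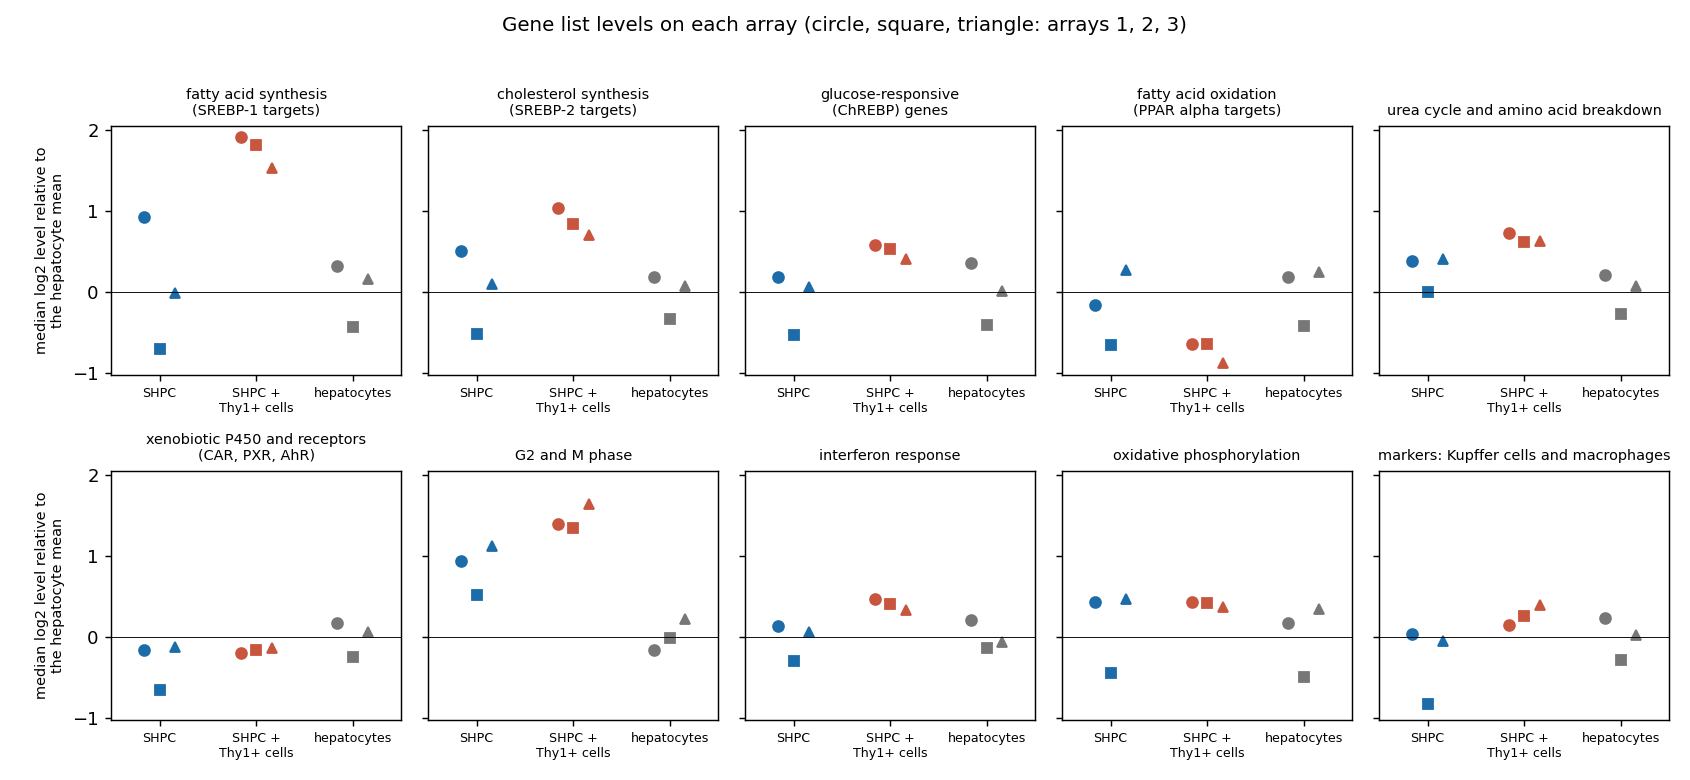
Each point is an array, and the y axis gives the median log2 level of a gene list relative to the hepatocyte mean of each gene. The fatty acid synthesis list lies at 1.53 to 1.91 on arrays with Thy1+ cells, above all SHPC arrays, and SHPC array 2 (blue square) is the lowest SHPC array for every list drawn.

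Glucose-responsive genes had higher values as well, 7 of 7, with a median of 0.82, and 6 of 7 without SHPC array 2 with a median of 0.58. Rgs16, a regulator of G protein signalling and a glucose-induced ChREBP target in liver, had 7.23, 7.15 and 7.33 on SHPC arrays and 9.03, 8.87 and 8.56 in transplanted livers. The SHPC arrays were nearly equal to each other here. Hepatocytes, at 8.80, 8.05 and 8.51, lay above them and nearer the transplanted group, with hepatocyte array 1 inside its range. The log2 change was 1.58 ± 0.20 (adjusted p = 0.0609), and Rgs16 passed without both arrays that stood apart (adjusted p = 0.0259). Pklr, the liver pyruvate kinase, differed by 1.30 ± 0.29 and Tkfc, which feeds fructose into glycolysis, by 1.00 ± 0.23, both without overlap.

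Enzymes and regulators of cholesterol synthesis had positive differences in 18 of 19 cases, the median being 0.85. An unadjusted p under 0.05 was reached by 14 (5.07% of all genes, higher). Without SHPC array 2 all 19 were higher, with a median of 0.63. Insig1, a sterol sensor that SREBPs induce, had 8.81, 6.92 and 7.89 against 10.05, 9.59 and 9.32, a log2 difference of 1.78 ± 0.40 (adjusted p = 0.275). Lss, the lanosterol synthase, had 6.28, 4.68 and 5.48 against 6.97, 6.97 and 6.84, or 1.45 ± 0.34 (adjusted p = 0.279). Hsd17b7, a late sterol enzyme, had 5.05, 4.38 and 4.82 against 5.69, 5.45 and 6.03, or 0.97 ± 0.20 (adjusted p = 0.198). In these 3 genes the groups did not overlap. Srebf2 itself differed by 0.68 ± 0.19 (adjusted p = 0.44).

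Promoters of the lipid lists were searched in RefSeq windows of GRCr8, 250 bases before to 50 after each start, on both strands. A CCAAT box, the site of NF-Y, which acts beside SREBPs, was spelled CCAAT and occurred in 10 of 14 fatty acid synthesis genes (71.4%), 12 of 15 cholesterol genes (80.0%) and 7 of 22 oxidation genes (31.8%), against 39.6% of 27457 genes. The E-box CACGTG occurred in 1 of 14 fatty acid synthesis genes (7.1%), 2 of 15 cholesterol genes (13.3%) and 1 of 22 oxidation genes (4.5%), against 7.08% of all. The classical sterol element, found in 0.12% of all windows, matched in 0 of the 14 and 0 of the 15. The perfect direct repeat read by PPAR alpha, found in 0.06% of all, matched in 0 of 22 oxidation genes. These are matches of letters in short windows and no test. Insig1 is shown as a member that carries both a CCAAT box, here on the other strand, and an E-box, in capitals, in the 250 bases before its start (minus strand, chr4:8057770-8058019).
Insig1: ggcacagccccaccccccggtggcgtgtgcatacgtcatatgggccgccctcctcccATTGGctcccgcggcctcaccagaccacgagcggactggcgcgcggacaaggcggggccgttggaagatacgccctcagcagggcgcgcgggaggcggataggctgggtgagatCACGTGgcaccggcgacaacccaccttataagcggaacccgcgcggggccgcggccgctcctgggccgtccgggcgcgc

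**Figure D4:**
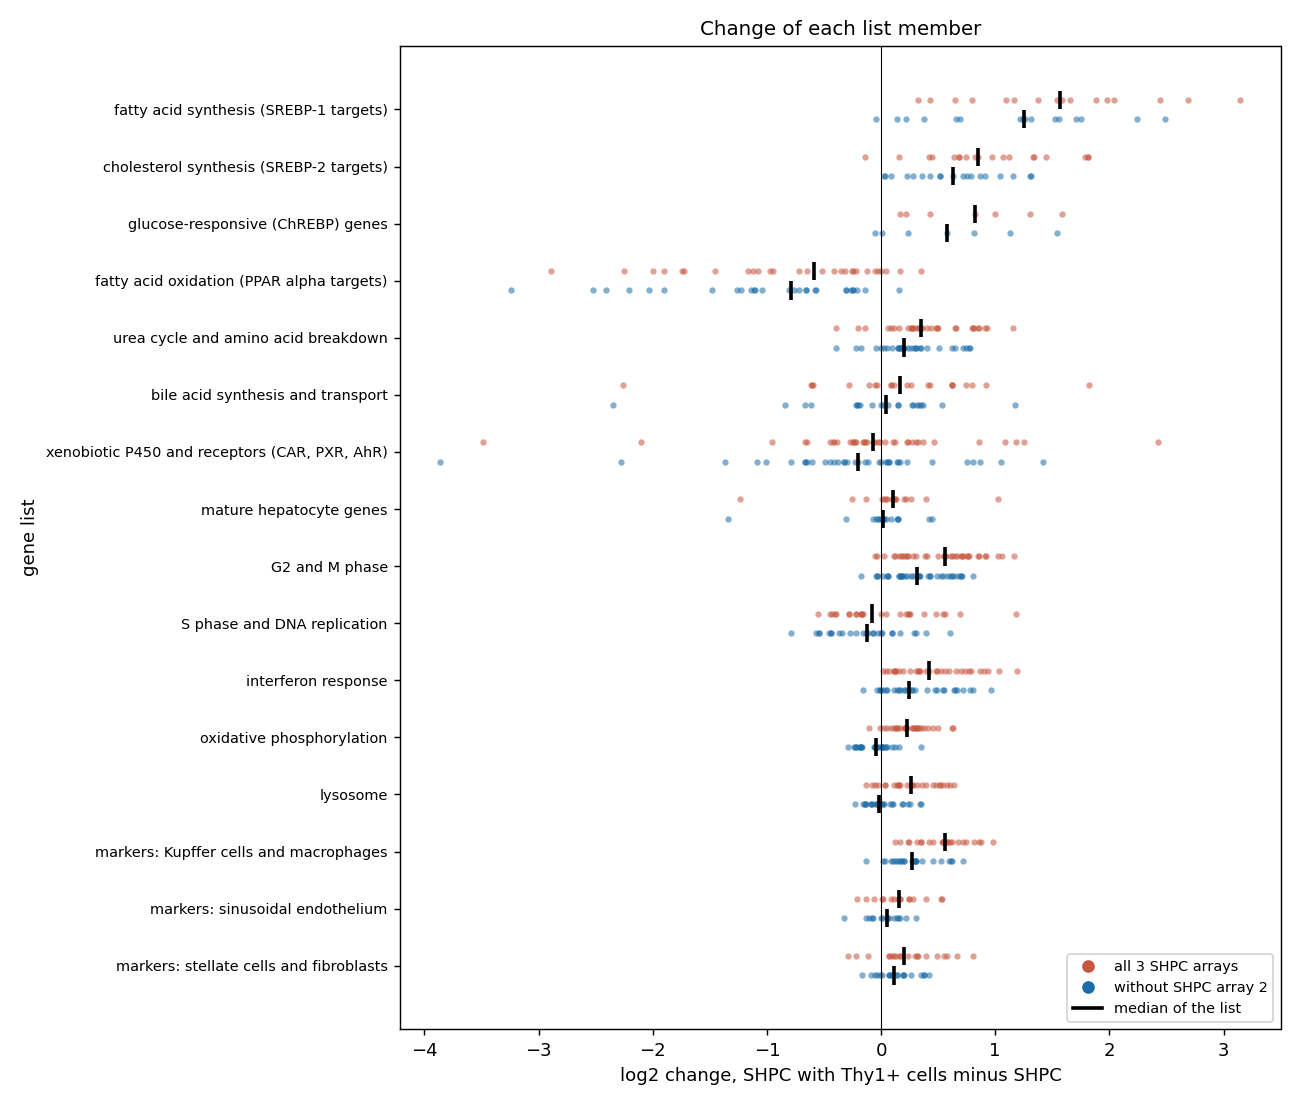
Each point is a gene of the list on the y axis, placed at its log2 change between SHPC clusters with and without Thy1+ cells, over all arrays (red) and without SHPC array 2 (blue), with a black bar at the median. The oxidation list moves further from 0 without SHPC array 2 (median -0.58 to -0.79), whereas the lists with a median above 0.1 over all arrays lie nearer 0 without it.

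Bile acid genes were mixed, with 14 of 22 higher and a median of 0.17, and 13 of 22 with a median of 0.042 without SHPC array 2. Cyp8b1, the 12-alpha-hydroxylase that sets the cholic acid share, had 10.52, 10.52 and 11.03 on SHPC arrays against 9.07, 8.55 and 7.67, a log2 change of -2.26 ± 0.32 (adjusted p = 0.0804). Cyp7a1, the rate-limiting enzyme of bile acid synthesis, had 6.98, 4.41 and 5.74 against 7.51, 7.19 and 7.90, or 1.82 ± 0.51 (adjusted p = 0.428). The 2 hydroxylases thus lay on opposite sides, each without overlap. Without the low SHPC array 2 the difference of Cyp7a1 was smaller, 1.17 ± 0.34. Nr1h4, the gene of the bile acid receptor FXR, differed by 0.41 ± 0.16 (adjusted p = 0.636).

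Amino acid breakdown was on the higher side, 29 of 32 genes with a median of 0.35, and 27 of 32 with 0.20 without SHPC array 2. Slc25a15, the ornithine carrier of the urea cycle, had 9.77, 9.50 and 9.50 against 10.30, 10.38 and 10.55, a log2 difference of 0.82 ± 0.16 (adjusted p = 0.183). Prodh, which begins proline breakdown, differed by 0.91 ± 0.19 (adjusted p = 0.198). Groups of both genes did not overlap. Acmsd, which diverts tryptophan breakdown away from NAD synthesis, had 8.24, 7.21 and 8.37 against 9.66, 9.37 and 9.41 and passed without both arrays that stood apart (1.17 ± 0.12, adjusted p = 0.0259). Nupr1, a stress-induced chromatin protein, had 7.82, 7.11 and 7.74 against 9.26, 8.83 and 9.05 and passed there as well (1.27 ± 0.14, adjusted p = 0.0259). Other transport genes higher in that fit were Nipal1 for magnesium, Slc43a1 for amino acids and Slc25a23 for mitochondrial ATP and magnesium. The membrane protease gene Prss8 was higher there too.

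Cell cycle genes differed by phase in their counts, a difference that was not tested. Of 37 genes of G2 and M phase, 35 were higher in transplanted livers with a median of 0.56, and 33 with 0.32 without SHPC array 2. Of 26 genes of S phase and DNA replication, 12 were higher with a median of -0.08, and 9 with -0.12. Both lists were above the hepatocyte mean in clusters of either kind: the G2 and M list lay at 0.94, 0.52 and 1.12 on SHPC arrays and at 1.39, 1.34 and 1.64 in transplanted livers. Kif20a, a kinesin of cytokinesis, had 5.21, 4.77 and 5.61 against 6.14, 6.15 and 6.35, a log2 difference of 1.02 ± 0.20 (adjusted p = 0.183). Cenpf, a kinetochore protein, had 4.85, 4.69 and 5.00 against 5.49, 5.46 and 5.73, or 0.71 ± 0.14 (adjusted p = 0.176). Ccnb1, the mitotic cyclin, had 5.77, 5.32 and 5.76 against 6.29, 6.29 and 6.58, or 0.77 ± 0.18 (adjusted p = 0.301). None of these groups overlapped. Mki67 had 7.78, 6.77 and 8.28 against 8.38, 8.34 and 8.84, and its difference of 0.91 ± 0.38 became 0.49 ± 0.31 without SHPC array 2. Mcm6, a subunit of the replicative helicase, differed by -0.55 ± 0.23 with overlap, and by -0.79 ± 0.20 without SHPC array 2 (adjusted p = 0.409). Fen1 and Rrm2 of the S phase list went the other way without overlap, by 0.54 ± 0.16 and 1.18 ± 0.46. They differed by 0.39 ± 0.13 and 0.60 ± 0.32 without SHPC array 2. Another, dimmer probe set of Rrm2 differed by 0.54 ± 0.42 over all arrays, in a fit of all probe sets. In the S phase list 3 members were higher and 2 lower without overlap (10.6% and 5.23% of all genes).

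Promoter windows of the G2 and M genes were searched in the same way. The cell cycle gene homology region, spelled TTTGAA, occurred in 22 of 31 genes with a window (71.0%), against 19.4% of all, and CCAAT in 23 of 31 (74.2%). Matches of the 2 overlapped in 1 of these genes. The windows of Kif20a and Ccnb1 hold no TTTGAA. These too are matches of letters in short windows and no test. The 3 genes with the smallest p among those with a match before the start are shown, with TTTGAA and any CCAAT box in capitals. The stretch printed for Kif20b holds no CCAAT, though its full promoter window does, and that of Cdc20 holds 2. They are Cdc20 (minus strand, chr5:137255810-137255885), Kif20b (plus strand, chr1:241840865-241840940) and Ect2 (minus strand, chr2:111966741-111966816).
Cdc20: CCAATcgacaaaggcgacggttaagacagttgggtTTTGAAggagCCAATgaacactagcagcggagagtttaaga
Kif20b: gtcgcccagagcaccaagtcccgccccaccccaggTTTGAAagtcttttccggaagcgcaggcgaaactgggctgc
Ect2: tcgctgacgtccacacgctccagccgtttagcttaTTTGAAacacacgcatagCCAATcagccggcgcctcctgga
Their log2 differences were 0.77 ± 0.18, 0.64 ± 0.18 and 1.06 ± 0.32, each without overlap and none past the adjusted threshold.

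Interferon-stimulated genes were higher in 31 of 31 tested members (53% of all genes), with a median of 0.42. An unadjusted p under 0.05 was reached by 12 (5.07% of all genes, higher). Without SHPC array 2, 26 of 31 were higher, with a median of 0.25. Usp18, which removes ISG15 from proteins, had 5.32, 5.14 and 5.57 against 6.46, 6.16 and 6.13, a log2 difference of 0.91 ± 0.17 (adjusted p = 0.165). Dhx58, a sensor of viral RNA, had 4.93, 4.85 and 4.81 against 5.28, 5.76 and 5.51, or 0.65 ± 0.15 (adjusted p = 0.275). Both lay apart without overlap, with hepatocyte means of 5.74 and 4.98. Psmb9, a subunit of the immunoproteasome, differed by 0.91 ± 0.17 (adjusted p = 0.176). The core of the interferon-stimulated response element, GAAA repeated after 2 open bases, occurred in 14 of 23 promoter windows of the list (60.9%), against 4.12% of all. Gbp5 (plus strand, chr2:233910908-233910987), Ifih1 (minus strand, chr3:67683983-67684062) and Irf7 (minus strand, chr1:205800048-205800127) had the smallest p among genes with the match before the start. The match is in capitals, and in Gbp5 and Irf7 it reads on the other strand.
Gbp5: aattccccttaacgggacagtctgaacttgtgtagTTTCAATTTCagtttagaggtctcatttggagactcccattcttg
Ifih1: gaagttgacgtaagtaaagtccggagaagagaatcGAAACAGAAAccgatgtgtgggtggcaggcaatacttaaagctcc
Irf7: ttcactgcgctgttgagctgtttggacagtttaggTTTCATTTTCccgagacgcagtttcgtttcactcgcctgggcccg
Gbp5, a GTPase of cell-autonomous defence, differed by 1.04 ± 0.24, Ifih1, which encodes the RNA sensor MDA5, by 0.77 ± 0.23 and Irf7, the interferon-inducing factor, by 0.70 ± 0.22, none past the adjusted threshold.

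Markers of Kupffer cells and macrophages were higher beside the interferon list. All 25 were higher (53% of all genes), with a median of 0.56. An unadjusted p under 0.05 was reached by 10 (5.07% of all genes, higher). Without SHPC array 2, 24 were higher with a median of 0.27. Their summed linear intensity was 4491, 2599 and 4194 on SHPC arrays and 5153, 5165 and 5842 in transplanted livers, with 5018, 3623 and 4499 in hepatocytes. The groups of clusters did not overlap, though hepatocyte array 1 lay near the transplanted group. Marco, a scavenger receptor of Kupffer cells, had 8.75, 8.59 and 8.57 against 9.26, 8.96 and 9.55, a log2 difference of 0.62 ± 0.16 (adjusted p = 0.342). Timd4, which binds dying cells, had 6.60, 5.64 and 6.22 against 7.04, 7.11 and 7.25, or 0.98 ± 0.27 (adjusted p = 0.401). The part of these cells in the interferon result was not tested. Markers of sinusoidal endothelium had a median of 0.16 (13 of 16 higher), those of stellate cells and fibroblasts 0.20 (17 of 20 higher), those of cholangiocytes 0.02 (5 of 10 higher) and those of T and NK cells -0.06 (6 of 17 higher). B and plasma cell markers gave 0.05 (5 of 10 higher), neutrophil markers -0.20 (1 of 12 higher), erythroid markers -0.09 (2 of 6 higher) and mesothelial markers 0.04 (4 of 7 higher). These medians moved when SHPC array 2 was left out: to 0.051 for endothelium (10 of 16 higher), 0.12 for stellate cells (15 of 20 higher), 0.041 for cholangiocytes (6 of 10 higher) and 0.044 for T and NK cells (10 of 17 higher). They became 0.079 for B and plasma cells (7 of 10 higher), -0.073 for neutrophils (3 of 12 higher), 0.017 for erythroid cells (3 of 6 higher) and 0.060 for mesothelium (4 of 7 higher), so T and NK cell and erythroid markers turned sign.

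Hepatocyte genes served as a check of the labelled tissue. Alb, the albumin gene, had 13.67, 13.55 and 13.66 on SHPC arrays and 13.65, 13.68 and 13.69 in transplanted livers. These overlapped, with a log2 difference of 0.05 ± 0.11 (95% interval -0.21 to 0.30). Alb lay close to the maximum intensity of each array (13306 to 14711 on the linear scale). A value so near the top of the scale can show little of a difference. The 17 mature hepatocyte genes tested had a median of 0.11, with 14 higher, and 0.02 without SHPC array 2. Onecut1, a liver-enriched transcription factor, stood out among them with 7.94, 7.84 and 8.36 against 6.33, 6.81 and 7.30, a log2 difference of -1.23 ± 0.26 (adjusted p = 0.224). The donor marker gene Thy1 had 5.29, 5.36 and 5.29 against 5.28, 5.30 and 5.21, a log2 difference of -0.05 ± 0.11. Of 12 genes listed for the transplanted cells 10 were higher, with a median of 0.19, and 0.13 without SHPC array 2. Dpp4 had 8.85, 7.63 and 8.89 against 9.12, 9.11 and 9.15, and its difference of 0.67 ± 0.35 became 0.26 ± 0.26 without SHPC array 2. Since Dpp4 was also measured in clusters without the graft, its level does not count donor cells.

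Of the 25 genes of the interleukin 17 list, 2 were higher at an unadjusted p under 0.05, Il17rb and Nfkbiz, where 5.07% of all genes were, so the count lies near that of all genes. Il17rb, a receptor subunit for interleukin 17B and interleukin 25, had 5.72, 4.29 and 5.08 on SHPC arrays and 6.86, 6.18 and 6.19 in transplanted livers. The groups did not overlap, hepatocytes held 5.46, 4.70 and 5.11, and the log2 difference was 1.38 ± 0.35 (adjusted p = 0.339), or 1.01 ± 0.29 without SHPC array 2. Its ligands Il17b and Il25 differed by -0.16 ± 0.16 and 0.06 ± 0.19, and the partner subunit Il17ra by -0.13 ± 0.13. Over the 25 genes of the interleukin 17 list the median was 0.05, with 14 higher, and -0.00 without SHPC array 2.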

How the data were processed

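RNA from laser-captured tissue of 9 arrays was read as probe set intensity. The deposited intensity values were made by the authors with RMA, which the submitters' processing notes name. The RMA version, its settings and the genome build are not given in the sources used here. The values are on a linear scale, as judged from their range, and log2 was taken of them. Of 36685 probe sets, 18511 had 1 gene symbol, 575 had several and 17599 were not named here; each of 18166 genes was represented by its brightest probe set, by mean over all arrays. A gene was tested if at least 3 arrays lay above their own 25th percentile, which left 15793 genes and 2373 dim ones.

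A mean per group was fitted over all 9 arrays with limma 3.58.1 (R 4.3.3), and SHPC clusters with Thy1+ cells were compared with SHPC clusters without. P-values were two-sided and adjusted over all genes tested by the Benjamini-Hochberg method, with a threshold of 0.05. The fit was repeated without SHPC array 2 and without SHPC array 2 and hepatocyte array 2. The median intensity of these arrays was 24.1 and 23.0, against 19.6 to 20.6 on the others. The code was tested on simulated data. The hepatocyte group's description label names SHPCs with transplantation and conflicts with its cell type label, which was followed.

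The genes named were those past the threshold, then in each direction up to 12 with the smallest p among genes that changed by at least 1 on the log2 scale without overlap, up to 4 per list, and a fixed set of regulators and markers. The members and lists were chosen with earlier results of these data known. Pairing by replicate number was checked on deviations from the group means. Same-numbered arrays correlated at 0.00234, -0.0936 and -0.039 between the 2 kinds of SHPC cluster, so the numbers were not taken to pair the groups compared. They correlated at 0.526, 0.705 and 0.341 between SHPC and hepatocyte arrays, where SHPC array 3 correlated more with hepatocyte array 1 (0.48), and at -0.069, -0.0797 and -0.0904 between transplanted-liver and hepatocyte arrays. Array 2 stood apart among both SHPC and hepatocyte arrays, and deviations cancel within a group. The correlations between these groups therefore cannot show pairing by number. The fit without a block models no pairing, and the blocked fit is given beside it. Alternatives covered the scaling between arrays, the dim filter, an offset, all probe sets, the arrays in the fit, array weights, a replicate block and an intensity trend. Promoters came from RefSeq (GRCr8). Some list members are not reported here.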

Additional observations from a re-analysis of the deposited data

How the results depend on the processing

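The count of genes past the adjusted threshold depended on the processing, and the cause was not tested. Over all arrays it was 1 and became 0 with median centring of each array, 0 with an offset of 16, 0 with the compared groups alone, 17 with renewed quantile normalization (3 higher, 14 lower), 40 with cyclic loess (16 higher, 24 lower), 259 with array quality weights (160 higher, 99 lower) and 64 with the replicate block (42 higher, 22 lower). For this replicate block the labels tie no number to an animal. Same-numbered deviations correlated between SHPC and hepatocyte arrays, where array 2 stood apart in both, but not between the 2 kinds of cluster. Leaving out 1 array gave 0 to 24, and leaving out both arrays that stood apart gave 23. In the repeat without SHPC array 2 the count of 1 became 0 with the compared groups alone, 15 with renewed quantile normalization, 20 with cyclic loess, 5 with the stricter dim filter, 130 with array quality weights and 4 with the intensity trend. It was 1 with the replicate block, ranged from 0 to 23 without 1 further array and was 23 without hepatocyte array 2. Median centring moved the median log2 change over all genes from 0.02 to 0.12, and the G2 and M list's median was 0.29 with array quality weights. Directions turned in 11 of 1680 gene values under alternatives, none of a called gene, and 1497 kept both direction and side of the threshold. With median centring the log2 change of Acadm was 0.0738, the log2 change of Ppara 0.1004 and the log2 change of Thy1 0.0561, and with cyclic loess the log2 change of Alb was -0.177. Leaving out 1 array gave -0.249 to 0.165 for the log2 change of Acadm, -0.308 to 0.071 for the log2 change of Acadvl, -0.807 to 0.164 for the log2 change of Ehhadh, -0.058 to 0.151 for the log2 change of Il25 and -0.136 to 0.163 for the log2 change of Ppara. The precision is limited by the number of arrays, 3 per group.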

Other observations

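Socs2 and Cish, feedback genes of growth hormone and STAT5 signalling, had lower values in transplanted livers than on SHPC arrays 1 and 3. Socs2, a feedback inhibitor of growth hormone signalling, had log2 intensities of 7.89, 6.17 and 8.12 on SHPC arrays and 6.22, 6.71 and 6.52 in transplanted livers. SHPC array 2 alone lay below the transplanted group, so the groups overlapped over all arrays. The log2 difference was -0.91 ± 0.46 over all arrays (limma adjusted p = 0.705) and -1.52 ± 0.28 without SHPC array 2 (adjusted p = 0.226), and Socs2 passed without both arrays that stood apart (adjusted p = 0.0259). Cish, a related STAT5 target, had 7.41, 6.20 and 6.92 against 5.99, 6.51 and 6.13, or -0.64 ± 0.28, and -0.96 ± 0.20 without SHPC array 2 (adjusted p = 0.312). Both belong to the list of HGF, EGF and IGF ligands and receptors, in which 16 of 32 tested members were higher and 16 lower. Igf1 of that list went the other way without overlap, by 0.61 ± 0.26 (limma adjusted p = 0.669). Its difference was 0.29 ± 0.18 without SHPC array 2.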
